A study of Mus musculus with 145 samples.

Results

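Meiotic 1 is a cluster of 144 cells among the 4464 annotated single cells of a mouse reprogramming time course, and its members were taken as all cells that carry this name in the deposited cell annotation. Modified STRT-seq, a plate-based method, tagged every captured transcript with its cell's barcode and a random identifier (UMI), and PCR copies with 1 identifier count as 1. The starting cells were cultured spermatogonial stem cells (SSCs) from male pups in their first week after birth, born to C57BL/6 females with an Oct4-EGFP or EGFP transgene and DBA/2 males. They were kept without passage on inactivated embryonic fibroblasts in medium with EGF, bFGF, GDNF and LIF, with no chemical added (labelled treatment none), and cells were picked by hand from SSC-like and pluripotent-like colonies. This condition gave 4339 of the cells in 46 libraries, sampled from day 0 to day 27. The 6 libraries of day 16 carry nearly all of Meiotic 1, and the groups compared with it were Meiotic 2, with 361 cells, and the stem cell clusters SSC1, SSC2, SSC3 and SSC4, with 818, 499, 494 and 454 cells, all from the same strain, medium and feeders. The labels number the libraries of a day but do not say that they came from separate cultures or animals, so p-values measure the spread between libraries, which may be technical.

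In the testis, GDNF binds the receptor pair GFRA1 and RET on stem spermatogonia and keeps them self-renewing. Retinoic acid then drives differentiation and switches on Stra8, after which cells replicate their DNA, make programmed breaks with SPO11, repair them with DMC1 and pair their chromosomes along the synaptonemal complex, which contains SYCP1 and SYCP3. Dpep3 encodes a dipeptidase of spermatocytes, and Zbtb16 encodes PLZF, a repressor that undifferentiated spermatogonia need. A mitotic cell makes a different set of transcripts in G2 and M phase, among them cyclins, mitotic kinases and spindle motors.

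Meiotic 1 was a day 16 cluster, and most of it came from a single library. On day 16 it held 141 of 571 cells, and the other 3 cells lay in 1 library each of days 14, 18 and 23. The cluster was absent from 37 of the 46 libraries. Replicates 1 to 5 of day 16 held 13, 22, 6, 11 and 8 members, or 13.5%, 22.9%, 6.25%, 11.6% and 8.51% of their cells, while replicate 6 held 81 of 94, or 86.2% (95% exact binomial interval 77.5 to 92.4). Replicate 6 therefore stood apart from the other 5 libraries and gave 56.25% of all members. Meiotic 2 made up the larger share of replicates 1 to 5, with 74, 64, 87, 50 and 77 cells, and had 1 cell in replicate 6. The annotation puts replicates 4 and 6 in batch B2 and the other 4 libraries in batch B1, and replicate 4 held Meiotic 1 at a share like that of batch B1, so replicate 6 stood apart within its batch too. Intervals cover counting error only.

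**Figure D1:**
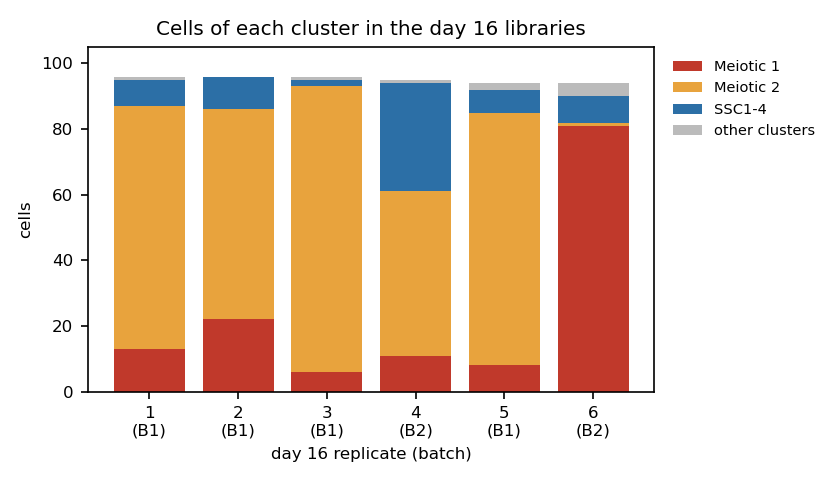
Number of cells (y axis) in Meiotic 1, Meiotic 2, SSC1 to SSC4 together and other clusters, stacked for each of the 6 day 16 libraries (x axis, with the batch). Meiotic 1 has 81 cells in replicate 6 and 6 to 22 in the others.

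Members were deeply sequenced. They had a median of 289076 UMIs and 8640 genes per cell, against 230901 UMIs and 8610 genes in Meiotic 2. Meiotic 1 had more genes per cell than Meiotic 2 in 5 of 5 libraries that held both, by 1014 on average, and a smaller percent of mitochondrial UMIs in 5 of 5, by 0.151 percentage points (exact sign-flip permutation test over libraries, two-sided, p = 0.0625 for each, the smallest that 5 libraries allow, so that 0.05 cannot be reached). Below, counts were summed per library and cluster, with at least 5 cells to a sum, and levels are counts scaled to a common library size with TMM (CPM). The Meiotic 1 sums of day 16 held 1710466 UMIs in replicate 3 to 20934365 in replicate 6. A gene was called higher or lower at a Benjamini-Hochberg adjusted p below 0.05 over all genes in edgeR's quasi-likelihood test together with a log2 fold change of at least 0.72 in size. The authors drew the clusters from the same transcriptomes, so calls between clusters describe them and are no independent test of their difference.

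In the summed counts, neither the meiotic genes Spo11 and Dpep3 nor Zbtb16, a gene of stem cells, passed both thresholds against Meiotic 2 or SSC1 to SSC4. Spo11 (chromosome 2, 172977700 to 172993576, GRCm38) stood at 7.58, 5.86, 2.92, 8.72, 16.4 and 12.7 CPM in the Meiotic 1 sums of replicates 1 to 6 and at 12.7, 12.9, 11.5, 11.3 and 8.02 CPM in the Meiotic 2 sums of replicates 1 to 5. These ranges overlapped, and the log2 difference of Meiotic 1 from Meiotic 2 was -0.58 ± 0.53 (SE, 5 libraries, edgeR adjusted p = 0.568). Against SSC1 to SSC4 over all libraries the differences of Spo11 were 0.81, 1.38, 0.998 and 0.64 (edgeR adjusted p = 0.553, 0.314, 0.543 and 0.679), and with the library as a block they were -0.14, 0.13, -0.98 and -1.22, none called. Dpep3 (chromosome 8, 105973513 to 105979429) had the widest spread of the 3 genes, with 11.5, 57.2, 1.17, 8.49, 0.304 and 82.7 CPM in Meiotic 1. Its highest value was in replicate 6, where the 8 cells of SSC1 to SSC4 together had 80.4 CPM, and its lowest in replicate 5. In Meiotic 2, Dpep3 ran from 4.63 to 23.7 CPM, so the groups overlapped, and it was not called in any comparison of clusters. Zbtb16 (chromosome 9, 48654297 to 48836222) was present in every sum, at 77.1, 103, 70.7, 104.8, 68.1 and 137 CPM in Meiotic 1 and 98.2 to 151 CPM in Meiotic 2. Against Meiotic 2 it was lower by a log2 difference of -0.55 ± 0.14 (edgeR adjusted p = 0.0184), under the fold threshold, and against SSC1 to SSC4 the differences ran from -0.38 to 0.07 with none called.

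Counted per cell, the same genes separated differently. With every cell thinned to 50000 UMIs, Spo11 was detected in 32 of 144 Meiotic 1 cells (22.2%, exact binomial interval 15.7 to 29.9), in 21.9% of Meiotic 2 cells and in 9.02% to 11.2% of SSC1 to SSC4 cells. The SSC cells came from all days and the meiotic cells nearly all from day 16, so day and cluster cannot be told apart in these shares. Dpep3 was detected in 52.8% of Meiotic 1 cells, but this value joined 72.8% in replicate 6 with 26.7% in replicates 1 to 5 (interval 16.1 to 39.7), while Meiotic 2 had 18.3% and the SSC clusters 12.9% to 15.9%. Only 16 Meiotic 1 cells had both Spo11 and Dpep3, of which 14 lay in replicate 6, and 52 had neither. Zbtb16 was detected in 90.3% of Meiotic 1 cells, in 93.0% of Meiotic 2 cells and in 85.9% to 88.8% of those of the SSC clusters. Fibroblast 1, a cluster named for another cell type, had 5.65% for Spo11, 12.99% for Dpep3 and 88.7% for Zbtb16 at the same depth. The study describes its cells as SSCs that gained fibroblast identity. Dazl was detected in 100% and Dmrt1 in 98.3% of them, so the cluster does not stand for cells outside the germ line. At the full depth, the shares in Meiotic 1 were 41.0% for Spo11, 70.8% for Dpep3 and 97.9% for Zbtb16.

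Genes of meiotic recombination and the chromosome axis were expressed in Meiotic 1, Meiotic 2 and SSC1 to SSC4, with overlapping sums over the list. The sums ran from 3357.5 to 4012 CPM in Meiotic 1 and from 3660 to 4191 CPM in Meiotic 2. The medians of SSC1 to SSC4 were 4217.5, 4153, 3494 and 3494 CPM. Of 40 such genes tested against Meiotic 2, 1 was higher and 1 lower, and the median log2 difference was -0.06 beside -0.09 over all 13550 genes, of which 3.48% were called in either direction. Sycp1, which codes for the transverse filament of the synaptonemal complex, stood at 457 to 599 CPM in Meiotic 1 and at 501 to 639 CPM in Meiotic 2, and the medians of SSC1 to SSC4 were 632, 533, 414 and 457 CPM. The gene called higher was Dmc1, the meiotic strand exchange protein, with 33.1, 43.2, 47.9, 30.6, 48.9 and 32.3 CPM in Meiotic 1 against 18.6 to 28.3 CPM in Meiotic 2. Although these groups did not overlap, the log2 difference of 0.76 ± 0.24 passed the test only narrowly (edgeR adjusted p = 0.0491) and lost its call under 9 of 11 alternatives, the omission of any of the 5 libraries among them. Hsf2bp, which brings the recombinases to breaks, was lower by -0.73 ± 0.15 (adjusted p = 0.00408), a call that was lost without replicate 5. Against SSC1, SSC2, SSC3 and SSC4, 2, 1, 1 and 3 of 42 tested recombination genes were higher, where 3.6%, 1.16%, 0.681% and 3.35% of all genes were, and Cntd1, a crossover factor with no UMI in Meiotic 1, was called lower than in SSC2, a call lost when any 1 of the 6 replicates was left out. Dmc1 was higher than in SSC1 and SSC4 by 0.88 and 1.24, and Sycp3, of the chromosome axis, higher than in SSC3 and SSC4 by 0.87 and 0.76, calls of Sycp3 that were lost without replicate 1, 2 or 5. The third gene was Rad21l, a meiotic cohesin subunit called against SSC1, SSC2 and SSC4, which reached 46.5 CPM in replicate 5 and 2.75 to 8.18 CPM in the other 5 libraries, and whose calls were lost without replicate 5. With the library as a block none of these 3 genes was called against an SSC cluster.

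The 24 listed genes that spermatocytes use later summed to 842 to 1181 CPM in Meiotic 1, beside 869 to 1111 CPM in Meiotic 2 and medians of 911 to 1120 CPM in SSC1 to SSC4. Acrv1, an acrosomal protein, and Spag6, of the sperm axoneme, had no UMI in any of the 6 Meiotic 1 sums, and 4 of the 24 stayed below 1 CPM in all of them. Of those tested against Meiotic 2, Hspa2, a chaperone of meiotic cells, was higher by 1.53 ± 0.26 and Clgn, a chaperone of the spermatocyte reticulum, was lower by -0.99, a call lost without any of replicates 1, 2, 3 and 5. These were 2 of 17, where 3.48% of all genes were called in either direction. Hspa2 ran from 14.3 to 68.4 CPM in Meiotic 1, SSC3 had a median of 47.6 CPM, and the gene was also higher than in SSC1 and SSC4, by 1.18 and 1.07. Since the sums of both gene lists, of recombination and of later spermatocytes, overlapped those of each SSC cluster, the cluster is called Meiotic 1 below only as the name that the annotation gives it.

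**Figure D2:**
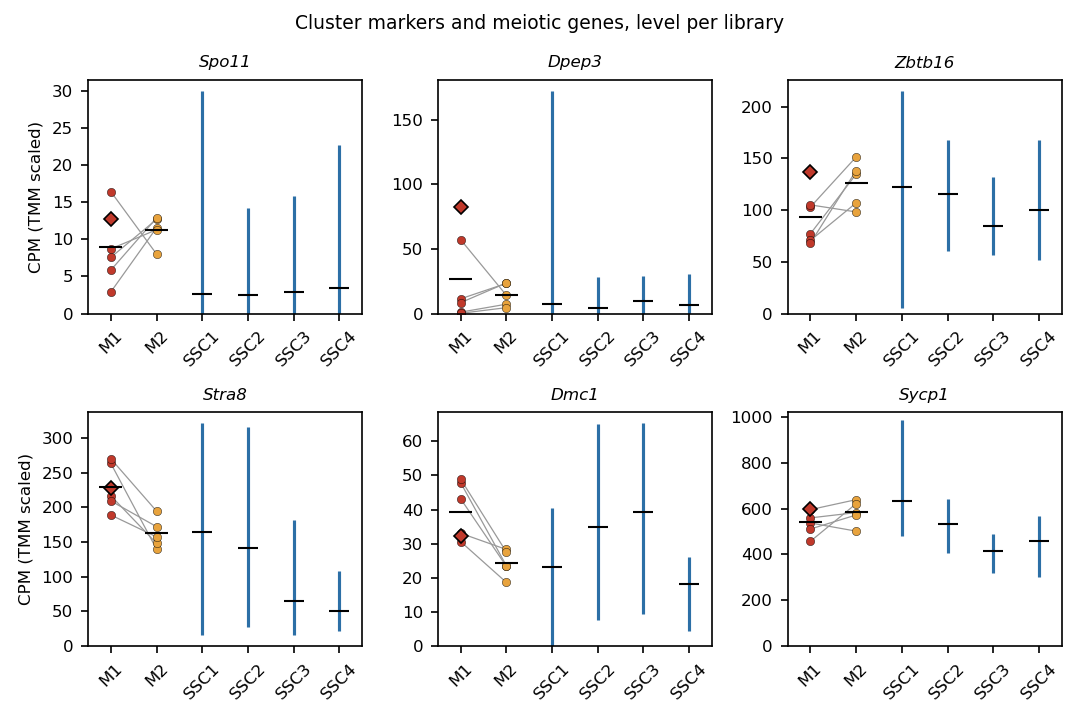
Levels in CPM (y axes) of Spo11, Dpep3, Zbtb16, Stra8, Dmc1 and Sycp1 in Meiotic 1 and Meiotic 2 of the day 16 libraries, with points of a library joined, a diamond for replicate 6 and a bar at the mean. Vertical lines give the range and ticks the median over libraries of SSC1 to SSC4, and Sycp1 lies within 300 to 986 CPM throughout.

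Entry into meiosis is marked by Stra8 (chromosome 6, 34920163 to 34939344), and this gene was high in Meiotic 1. It stood at 264, 270, 217, 209, 189 and 228 CPM in Meiotic 1 and at 140, 195, 148, 172 and 157 CPM in Meiotic 2, so that only replicate 5 of Meiotic 1 fell within the range of Meiotic 2. Within libraries the log2 difference was 0.52 ± 0.10 (edgeR adjusted p = 0.00179), under the fold threshold. Against SSC3 and SSC4 it was called, at 1.81 ± 0.28 and 2.07 ± 0.29, while SSC1 and SSC2 reached 322 and 316 CPM in single libraries and did not differ beyond the thresholds. With the library as a block the call against SSC3 was lost (1.37, edgeR adjusted p = 0.111). Of the 7 tested genes of meiotic initiation, 0, 0, 1 and 2 were higher than in SSC1 to SSC4, where 3.6%, 1.16%, 0.681% and 3.35% of all genes were. The other gene called against SSC4 was Gm4969, at 1.95 ± 0.68 (edgeR adjusted p = 0.0473), a call lost without replicate 1, 2, 3 or 4 and with the library as a block. None of the 7 was called against Meiotic 2 or against the SSC cells of the same libraries, where Stra8 differed by 0.66 ± 0.25 (edgeR adjusted p = 0.362).

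Genes of mitosis were higher in Meiotic 1 than in Meiotic 2. Meiotic 1 had 241 genes higher (1.78% of 13550) and 231 lower (1.7%) than Meiotic 2 in the 5 libraries that held both, and 18 of 20 genes of G2 and M phase were among those higher, with a median log2 difference of 1.28. Of 20 genes of S phase, 1 was higher, with a median of 0.25. That gene was Rrm2, the regulated subunit of ribonucleotide reductase, at 1.13 ± 0.16. Mki67, which codes for the Ki-67 protein of dividing cells (chromosome 7, 135689784 to 135716361), stood at 164, 193, 90.0, 149 and 153 CPM in Meiotic 1 of replicates 1 to 5 (149.7 ± 37.6, SD, n = 5) and at 12.1, 20.2, 28.7, 8.10 and 11.6 CPM in Meiotic 2 (16.2 ± 8.30, n = 5). Every Meiotic 1 sum lay above every Meiotic 2 sum. The fitted difference was 10.2-fold (log2 difference 3.35 ± 0.26, edgeR adjusted p = 6.24e-08). Kif11, the motor that pushes spindle poles apart, had 123, 100, 112, 72.8 and 146 CPM in Meiotic 1 and 19.6 to 33.5 CPM in Meiotic 2, a 4.11-fold difference. Plk1, the polo-like kinase that drives entry into mitosis, was 3.64-fold higher and Ccna2, cyclin A2, 3.62-fold higher, again without overlap. Bub1, a checkpoint kinase, and Cenpf, a kinetochore protein, were the 2 members not called, at 0.72 ± 0.12 and 0.49 ± 0.07, both with adjusted p under the threshold and a fold below it. The count of G2 and M genes was 18 or 19 under each of the 11 alternatives, which included each library left out and, with replicate 4 omitted, batch B1 alone.

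**Figure D3:**
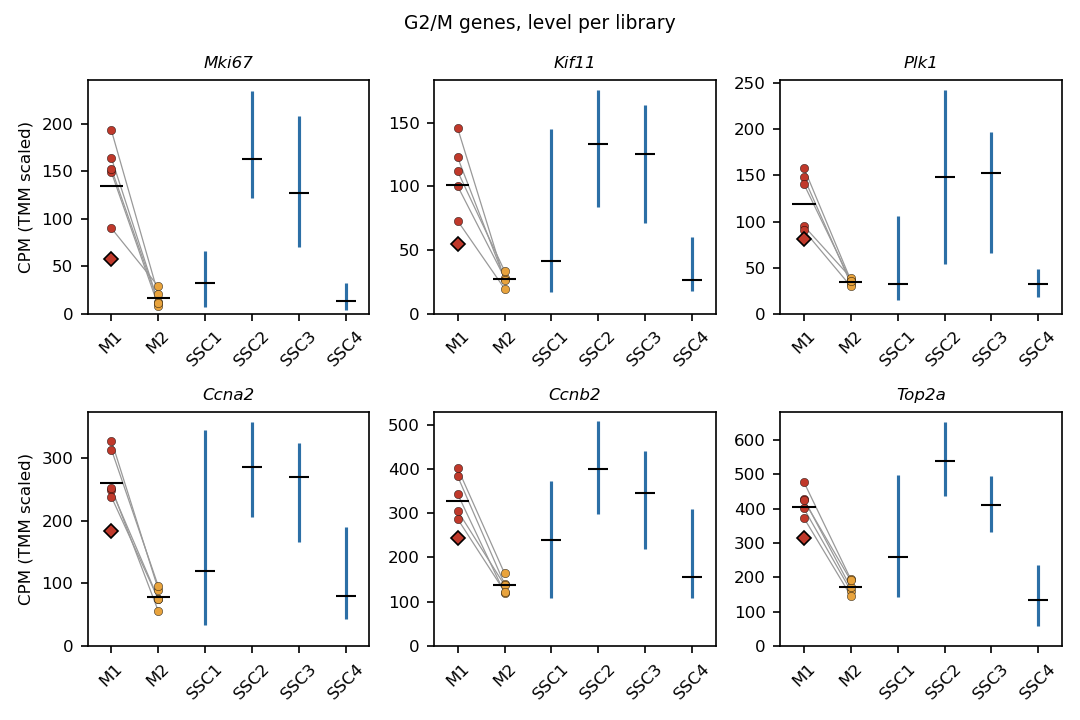
Levels in CPM (y axes) of the G2 and M genes Mki67, Kif11, Plk1, Ccna2, Ccnb2 and Top2a, drawn as in the plot of markers. Meiotic 1 of replicates 1 to 5 lies above Meiotic 2 for each gene, the diamond of replicate 6 is the lowest Meiotic 1 point, and SSC2 and SSC3 reach the levels of Meiotic 1.

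Many genes of G2 and M phase share 2 promoter elements, the cell cycle homology region (CHR, here TTTGAA or TTCGAA) and the CCAAT box, through which the DREAM and NF-Y complexes act. RefSeq promoters (GRCm38.p6, 250 bases before to 50 after the annotated start) were found for 17 of the 20 genes, and 13 held a CHR (76.5%), 15 a CCAAT box (88.2%) and 13 both, with both strands searched. Of all 32851 promoters in the table, 19.2% held a CHR, 37.4% a CCAAT box and 7.52% both. The S phase genes matched 19 promoters, of which 15.8% held a CHR and 68.4% a CCAAT box. Among all genes higher in Meiotic 1 than in Meiotic 2, 29.4% of promoters held a CHR, and among those lower, 15.5%, beside 13.6% among all genes tested. A match of letters is a description and not a site of binding. The promoters of the 3 genes given above with their differences are shown because they carry these elements, written from 5′ to 3′ along the strand of the gene, with the CHR and CCAAT matches of either strand in capitals. They lie at chr7:135716330-135716629 (minus strand), chr19:37376132-37376431 (plus) and chr7:122159185-122159484 (plus).
Mki67: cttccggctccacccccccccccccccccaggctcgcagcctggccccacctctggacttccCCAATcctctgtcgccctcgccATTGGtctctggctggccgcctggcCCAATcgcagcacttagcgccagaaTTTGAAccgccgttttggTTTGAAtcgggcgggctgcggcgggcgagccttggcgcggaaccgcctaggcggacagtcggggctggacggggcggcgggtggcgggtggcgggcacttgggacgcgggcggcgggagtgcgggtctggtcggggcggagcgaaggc
Kif11: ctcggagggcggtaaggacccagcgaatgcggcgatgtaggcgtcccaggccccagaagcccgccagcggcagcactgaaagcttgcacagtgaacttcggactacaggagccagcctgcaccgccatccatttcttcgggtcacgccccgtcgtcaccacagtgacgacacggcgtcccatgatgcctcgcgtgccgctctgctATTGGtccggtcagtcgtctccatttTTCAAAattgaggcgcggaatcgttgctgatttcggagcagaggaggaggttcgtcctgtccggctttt
Plk1: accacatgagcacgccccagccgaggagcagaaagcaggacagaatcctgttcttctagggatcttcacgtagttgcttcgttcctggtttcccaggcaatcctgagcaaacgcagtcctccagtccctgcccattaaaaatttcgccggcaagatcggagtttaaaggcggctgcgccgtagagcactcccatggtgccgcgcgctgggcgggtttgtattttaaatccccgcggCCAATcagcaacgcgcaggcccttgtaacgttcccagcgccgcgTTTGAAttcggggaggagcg
Kif11 carries the elements once each shortly before its start, Mki67 carries several farther upstream, and Plk1 has its CHR after the annotated start.

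Several of the genes named for the largest fold changes above Meiotic 2 code for histones. No list of histone genes was set, so whether they were higher as a group was not tested. Hist1h2bb, Hist1h2ag, Hist1h1a, Hist1h2bk and Hist1h3c were higher in Meiotic 1 by log2 differences of 3.16, 2.87, 2.82, 2.58 and 2.33. Hist1h3c, a gene for histone H3, stood at 14.9 to 54.4 CPM in the 5 libraries against 4.06 to 8.60 CPM in Meiotic 2. Histone genes form families of near-identical copies, so the split of their reads between copies is uncertain. Bcl2l11, which codes for BIM, a protein that promotes apoptosis, was higher by 2.51 ± 0.35 (edgeR adjusted p = 0.000115), with 40.6, 27.8, 45.6, 20.6 and 38.0 CPM against 5.39, 2.91, 17.4, 4.74 and 5.64 CPM. The ranges of Bcl2l11 did not overlap. Pif1, a DNA helicase, was higher by 2.48, Slc16a10, a transporter of aromatic amino acids, by 2.46 and Dqx1 by 2.2.

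The genes lower in Meiotic 1 than in Meiotic 2 were of mixed kinds. Rtp4, a chaperone of receptors induced by interferon, had the largest difference at -4.78 ± 0.93 (edgeR adjusted p = 0.00229), with 0 to 1.75 CPM in Meiotic 1 of replicates 1 to 5 against 5.30 to 13.6 CPM. Myl2, a myosin light chain, followed at -3.69, then Gstt2, a glutathione transferase, at -3.29 and Mlycd, malonyl-CoA decarboxylase, at -3.00. Klhl35, Fhad1, Riiad1, Ak8, Spats1 and Cdc42ep5 lay between -2.81 and -2.30, of which Cdc42ep5 lost its call without any 1 of the 5 libraries. Among genes of spermatogonial differentiation, Ccnd2, cyclin D2, was lower by -0.73, and Sohlh2, a transcription factor of differentiating spermatogonia, and Esx1, a homeobox factor on the X chromosome, were higher by 0.82 and 0.92, so 3 of 15 were called, where 3.48% of all genes were. Against SSC1 to SSC4 over all libraries, 1, 0, 3 and 4 of these 15 genes were higher. Among all genes 3.6%, 1.16%, 0.681% and 3.35% were. Of the 15, 1 was lower than in SSC4, where 3.79% of all genes were, and day and cluster cannot be told apart there. Against Meiotic 2, no gene of stem cell self-renewal was called among 21 tested, and none of 84 cytosolic ribosomal protein genes. The count of genes lower was less firm than the pattern in the cell cycle, since it was 138, 116, 133, 290 and 141 without replicates 1 to 5 in turn.

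Replicate 6 took no part in this comparison, since it had 1 Meiotic 2 cell, and its 81 Meiotic 1 cells could be set beside it. All 18 called G2 and M genes stood in Meiotic 1 of replicate 6 above all 5 Meiotic 2 sums. Of the 241 genes higher in Meiotic 1, 158 (65.6%) lay above all 5 Meiotic 2 sums in replicate 6, against 18.5% of all genes tested. Of the 231 lower genes, 89 (38.5%) lay below all 5, against 20.7% of all genes, and 130 (56.3%) lay within the range of Meiotic 2. The called genes were chosen with these same 5 Meiotic 2 sums, so the shares over all genes are not their no-change values. The cells of replicate 6 were assigned to the cluster from the same transcriptomes, so they are no independent test of it. In its sum, replicate 6 lay with the other members in the called G2 and M genes but in only part of what was low in them. Ak8, an adenylate kinase, illustrates this with 2.53, 2.64, 4.67, 11.2 and 4.56 CPM in Meiotic 1 of replicates 1 to 5, 26.6 CPM in replicate 6 and 22.5 to 27.2 CPM in Meiotic 2. Rtp4 likewise stood at 9.63 CPM in replicate 6, inside the range of Meiotic 2. Replicate 6 has no Meiotic 2 sum of its own, so library and cluster cannot be told apart there.

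Within Meiotic 1, replicate 6 also had a different balance of cell cycle genes. Mki67 stood at 57.9 CPM there and at 90.0 CPM or more in the other libraries, and 14 of the 20 G2 and M genes had their lowest Meiotic 1 value in replicate 6, against 8.93% of all genes. Conversely, 14 of the 20 S phase genes had their highest value there, against 17.6% of all genes. Summed over the list, G2 and M genes gave 5368, 5244, 5544, 4340, 4989 and 3717 CPM in Meiotic 1 of replicates 1 to 6, and 2123 to 2498 CPM in Meiotic 2. S phase genes gave 3290, 3361, 3248, 3550, 3345 and 4224 CPM in Meiotic 1, and 2895 to 3254 CPM in Meiotic 2. At 50000 UMIs a cell, the median member of replicate 6 had 167 UMIs from the G2 and M genes, against 261 in replicates 1 to 5 and 110.5 in Meiotic 2. In replicate 6, 37 of 81 cells exceeded the 95th percentile of Meiotic 2 (183 UMIs) and 33 lay at or below its 75th percentile (137 UMIs), while in replicates 1 to 5 the counts were 57 and 1 of 60. Nearly all members of replicates 1 to 5 thus lay above the 95th percentile of Meiotic 2 in this measure, though a Meiotic 2 cell reached 362 UMIs. Meiotic 1 cells of replicate 6 overlapped both groups. For S phase genes, 27 of 81 cells of replicate 6 and 6 of 60 of the others exceeded the 95th percentile of Meiotic 2.

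**Figure D4:**
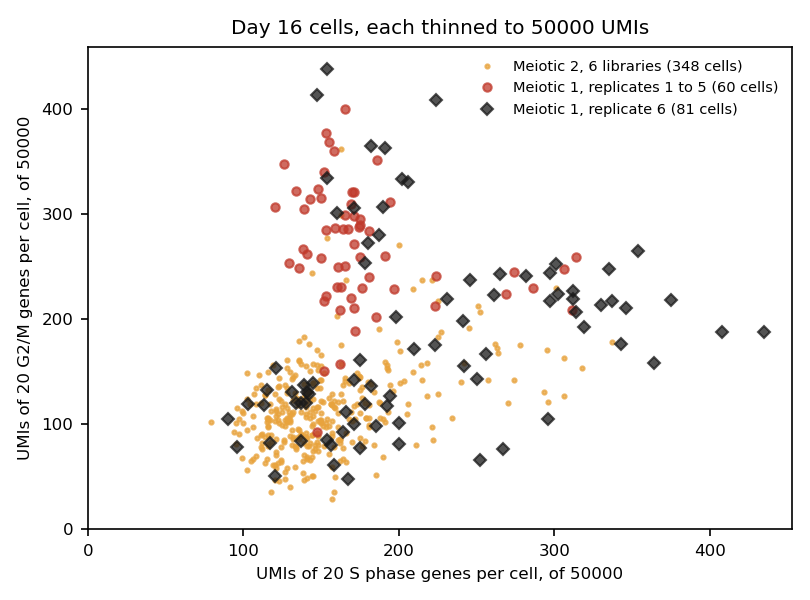
Each point is a day 16 cell thinned to 50000 UMIs, with UMIs of 20 S phase genes on the x axis and of 20 G2 and M genes on the y axis, for 348 Meiotic 2 cells, 60 Meiotic 1 cells of replicates 1 to 5 and 81 of replicate 6. The 60 cells lie above most of Meiotic 2, and the 81 cells spread from the cloud of Meiotic 2 upward and to the right.

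The mitotic genes did not separate Meiotic 1 from every stem cell cluster. Sums of 36 libraries were compared in 1 fit of 16589 genes, and Meiotic 1 had 597 genes higher (3.6%) and 397 lower (2.39%) than SSC1, 5.99% in either direction. The genes lower than in SSC1 included 26 of 84 cytosolic ribosomal protein genes (median -0.65) and 7 of 12 mitochondrial genes (median -0.75), and SSC1 cells had a median of 149268 UMIs and 1.21% mitochondrial UMIs, against 289076 and 0.805% in Meiotic 1. With cells thinned to 50000 UMIs, 370 of the 597 genes were again called higher and 193 of the 397 lower, and the part of cell quality was not tested. Against SSC2, 192 were higher (1.16%) and 140 lower (0.844%), 2.0% in all, and against SSC3, 113 were higher (0.681%) and 246 lower (1.48%), 2.16% in all. Against SSC4, 556 were higher (3.35%) and 629 lower (3.79%), 7.14% in all. Of the 20 G2 and M genes, 13 were higher in Meiotic 1 than in SSC1 and 18 higher than in SSC4, with medians of 0.90 and 1.46 beside -0.03 over all genes in both. Against SSC2 all 20 had a difference below 0, with a median of -0.30, and Nusap1, a spindle protein, was called lower by -0.99. The call of Nusap1 was lost in batch B1 alone (-0.82) and with the library as a block (-0.68), where 1 other G2 and M gene was called lower. Against SSC3 the median was -0.06 and none was called. Mki67 had medians of 32.1, 163, 127 and 13.7 CPM in SSC1 to SSC4, so that Meiotic 1 of replicates 1 to 5 lay with SSC2 and SSC3. By these counts, Meiotic 1 stood above SSC1, SSC4 and Meiotic 2 in mitotic genes and not above SSC2 or SSC3. With the library as a block the counts were 16 against SSC1 and 17 against SSC4.

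Meiotic 1 had little of the receptor for GDNF. Gfra1 (chromosome 19, 58235604 to 58455909) stood at 2.75, 5.71, 2.92, 7.82, 5.77 and 5.79 CPM in Meiotic 1 (5.13 ± 1.95, SD, n = 6), and its medians in SSC1 to SSC4 were 14.5, 16.7, 32.4 and 43.5 CPM. Each Meiotic 1 sum lay below the lowest SSC3 and SSC4 sums, at 20.4 and 24.2 CPM, while SSC1 and SSC2 reached down to 0. The log2 differences were -1.83, -1.97, -2.71 and -3.06 (edgeR adjusted p = 0.00244, 0.00485, 0.000105 and 2.24e-06). Ret, the signalling partner of Gfra1, ran from 27 to 43.2 CPM and was lower by -1.24, -1.48, -1.84 and -2.09, or by 2.36-fold, 2.80-fold, 3.58-fold and 4.26-fold. Nanos2, an RNA-binding protein that holds stem cells undifferentiated, was at 0 in 2 of 6 Meiotic 1 sums and at 4.25 CPM at most, and was called lower against SSC1, SSC2 and SSC4. Of 24 self-renewal genes tested, 5, 3, 6 and 9 were lower than in SSC1, SSC2, SSC3 and SSC4, where 2.39%, 0.844%, 1.48% and 3.79% of all genes were. The list medians were -0.37, -0.22, -0.84 and -0.95, beside -0.03 over all genes in each comparison. Other genes of the self-renewal list were called against some SSC clusters only, and differences among the SSC clusters were not tested. Against SSC3 and SSC4, Lhx1 was lower by -2.65 and -2.74 and T by -5.24 and -5.85, with T at 0 in 4 of 6 Meiotic 1 sums, and Egr2 and the surface protein Tspan8 were lower too. Against SSC1, Etv5 was higher by 0.93 and Taf4b by 0.84, and Foxo1 and Sall4 were lower by -0.91 and -0.78.

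Day and cluster cannot be told apart in this comparison, because nearly all Meiotic 1 cells came from day 16 and the SSC clusters from all days. When the library was added as a block, so that only libraries with several clusters bore on the difference, none of the 24 self-renewal genes was lower than in SSC2, SSC3 or SSC4 and 2 were lower than in SSC1. The log2 difference of Gfra1 was then 0.27, 0.41, -0.06 and -0.48 against SSC1 to SSC4 (edgeR adjusted p = 0.884, 0.843, 0.994 and 0.816). Counts of all genes were then 343 higher and 236 lower against SSC1, 76 and 47 against SSC2, 3 and 4 against SSC3 and 222 and 89 against SSC4. Of these, 128 and 84, 6 and 3, 0 and 0, and 102 and 41 had also been called without the block. The levels of Gfra1 in the SSC cells of the same libraries were themselves spread from 0 to 17.1 CPM.

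**Figure D5:**
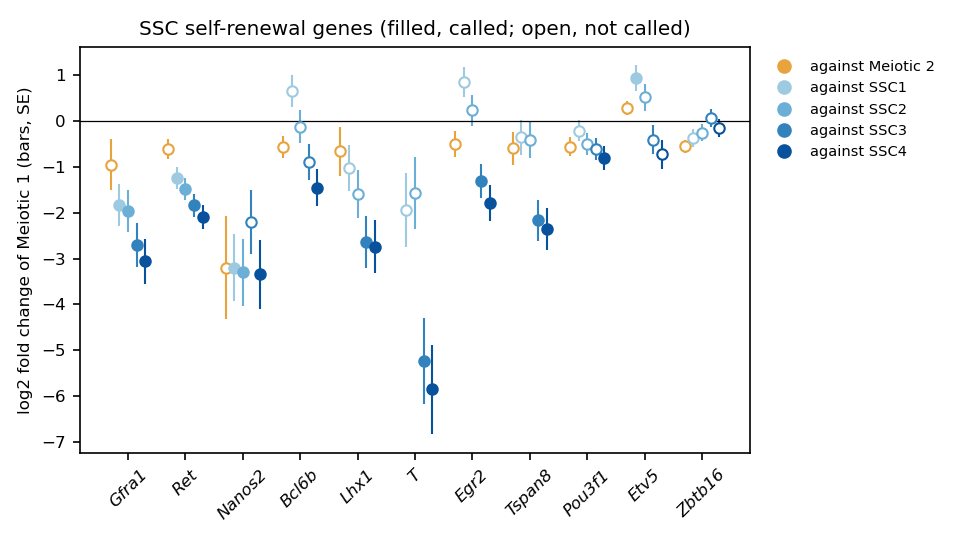
Log2 fold change of Meiotic 1 (y axis, bars give the standard error) against Meiotic 2, SSC1, SSC2, SSC3 and SSC4 (colours) for 11 genes of stem cell self-renewal (x axis), where filled points were called. Gfra1 and Ret are called against each SSC cluster over all libraries, and none of the 11 genes is called against Meiotic 2, where T was not tested.

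Several other genes differed from each of the 4 SSC clusters over all libraries, 19 higher and 59 lower in Meiotic 1. Cdh15, a cadherin, stood at 210, 172, 260, 102, 177 and 170 CPM in Meiotic 1 against medians of 46.3, 52.5, 59.5 and 69.7 CPM, with log2 differences of 1.51 to 1.76. Palm3 differed by 1.62 to 2.03, P2rx7, an ATP-gated channel, by 1.52 to 2.58, Hsd17b7, an enzyme of cholesterol synthesis, by 1.12 to 1.36 and Plekhf1 by 1.12 to 1.58. P2rx7 reached 117 CPM in replicate 3, and the other Meiotic 1 sums lay between 24.4 and 46.2 CPM. Among genes lower against all 4 were Irs2, a substrate of the insulin receptor (-3.15 to -2.87), Igfbp5, which binds insulin-like growth factors (-3.48 to -2.83), Acss1, a mitochondrial acetyl-CoA synthetase (-5.24 to -2.76), and the keratin-associated gene Krtap17-1, which had no UMI in 4 of 6 sums. Of these 9 genes 7 were tested against Meiotic 2, and Palm3 was called, at 0.85 ± 0.22, while Irs2 and Igfbp5 had differences of -2.40 and -1.95 that did not pass. With the library as a block, P2rx7 and Irs2 kept a call against SSC1, Igfbp5 and Acss1 against SSC4, and the others against none.

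Some early response genes of growth factor signalling were higher than in the SSC clusters. Against Meiotic 2, none of 11 tested genes that ERK signalling induces was called. Of 16 early response and heat shock genes, Hspa1a and Hspb1 were called higher than in Meiotic 2, where 1.78% of all genes were. The 16 genes summed to 2165 to 2720 CPM in Meiotic 1 and to 2586 to 2854 CPM in Meiotic 2. Egr1, a transcription factor induced by ERK signalling, stood at 126, 111, 165, 91.0, 172 and 151 CPM in Meiotic 1 and at medians of 58.1 to 69.5 CPM in the SSC clusters, with log2 differences of 0.79 to 1.03, all called, of which that against SSC1 was lost without replicate 3. Fosl1, a subunit of the AP-1 factor, was higher than in SSC1, SSC2 and SSC4 by 2.58, 2.81 and 1.84. Of 16 early response and heat shock genes, 5, 3, 1 and 3 were higher than in SSC1 to SSC4, where 3.6%, 1.16%, 0.681% and 3.35% of all genes were, and Jun was lower than in SSC4 by -1.49. Fos and Junb were among those higher than in SSC1. Of 12 tested genes that ERK signalling induces, 4, 3, 1 and 2 were higher and Dusp6, an ERK phosphatase, was lower than in SSC4 by -0.99, with medians of 0.63, 0.36, -0.39 and -0.48. The call of Jun was lost without replicate 1, 2, 3 or 4 and that of Dusp6 without replicate 1, 2 or 4, and with the library as a block neither these nor Fos, Junb or Fosl1 were called. Egr1 in SSC1 to SSC4 cells of the same day 16 libraries stood at 102 to 314 CPM, overlapping Meiotic 1, and with the library as a block its differences lay between -0.09 and 0.04 with none called.

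Of 8 tested genes that respond to retinoic acid or handle it, 1, 1, 1 and 2 were higher than in SSC1 to SSC4 and 1 was lower than in each, where 3.6%, 1.16%, 0.681% and 3.35% of all genes were higher and 2.39%, 0.844%, 1.48% and 3.79% lower. The list medians were 0.08, 0.31, 0.12 and 0.24. The 11 listed genes, Stra8 among them, summed to 694 to 971 CPM in Meiotic 1, to 682 to 832 CPM in Meiotic 2 and to medians of 645.5, 562, 549.8 and 425 CPM in SSC1 to SSC4. Crabp1, which binds retinoic acid, was higher than in SSC4 by 1.09, a call kept with the library as a block. Dhrs3, which returns retinal to retinol, was lower than in each SSC cluster, by -1.94, -2.52, -3.47 and -3.75, with 0.146 to 3.21 CPM in Meiotic 1, calls that were lost with the library as a block. Crabp2, another binding protein, was lower than in Meiotic 2 by -0.92. Of 18 genes of glycolysis, 1, 1, 2 and 3 were lower than in SSC1 to SSC4, beside 2.39%, 0.844%, 1.48% and 3.79% of all genes, and 0 were higher. Pfkl, a phosphofructokinase subunit, was lower than in all 4 by -2.53 to -1.95. Hk2, hexokinase 2, was lower than in SSC3 and SSC4 by -1.11 and -1.14, and Aldoc was also called lower than in SSC4. Against Meiotic 2, 1 of the 18, Ldhb, was called higher, where 1.78% of all genes were. With the library as a block neither Pfkl nor Hk2 was called. The differences were then -0.50, -0.03, 0.03 and -0.32 for Pfkl and -0.04 and 0.0034 for Hk2. Targets of p53 summed to 1398 to 1571 CPM in Meiotic 1, above the 1164 to 1324 CPM of Meiotic 2, and 1 of 11, Ccng1, was called higher, at 0.80 ± 0.13, where 1.78% of all genes were. Of 14 tested pluripotency genes, 1, 0, 1 and 3 were higher than in SSC1 to SSC4 and 1 was lower than in SSC3 and in SSC4, to be read against the same shares of all genes. Klf4 was higher than in SSC1 by 1.08 and than in Meiotic 2 by 0.99, Dppa3 was higher than in SSC3 and SSC4 by 0.91 and 1.23, and Tfcp2l1 was higher than in SSC4 by 3.24. Sox2 was lower than in SSC3 and SSC4 by -2.81 and -2.41, while Pou5f1 was higher than in SSC4 by 2.34 with its highest value, 34.4 CPM, in replicate 4, without which the call was lost. The call of Klf4 against SSC1 was lost without replicate 3, 4 or 5, that of Dppa3 against SSC3 without replicate 1, 4 or 6, and those of Sox2 without replicate 1, 2, 4 or 5. With the library as a block none of these pluripotency calls against SSC clusters held.

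Compared with stem cells of the same libraries, Meiotic 1 differed in few genes. The 5 libraries with at least 5 cells of SSC1 to SSC4 (replicates 1, 2, 4, 5 and 6) gave 14 genes higher (0.122% of 11451) and 55 lower (0.48%), 0.603% in either direction. The SSC cells there were few and shallow, with 7 to 33 cells a library and medians of 11698 UMIs a cell in replicate 6 to 190315 in replicate 4, and Meiotic 1 had more genes per cell in 5 of 5 libraries, by 2886 on average (exact sign-flip p = 0.0625). Cdkn3, a phosphatase of the cell cycle, was higher by 2.07 ± 0.42 (edgeR adjusted p = 0.00666), and Ube2c, which marks mitotic proteins for destruction, was the G2 and M gene called, at 0.94 ± 0.22. Of the 20 G2 and M genes 18 had a difference above 0, with a median of 0.44 beside 0.11 over all genes, and 11 were called higher when each cell was thinned to 50000 UMIs, which left 4 libraries, and 0 to 2 in the other alternatives. Spp1, which codes for osteopontin, stood at 76.0, 147, 89.6, 202 and 47.9 CPM in Meiotic 1 and at 13.4, 33.9, 44.7, 24.7 and 7.31 CPM in the SSC cells, without overlap (2.18 ± 0.41). Ldhb, a lactate dehydrogenase subunit, was higher by 2.12, Dmkn by 2.97, Hist1h2bj by 2.93, Arid5b by 2.78, Phlda2 by 1.92, Sgk1 by 1.43, Tuba1a by 1.21 and Ripk3 by 1.17. Genes lower in Meiotic 1 were led by the translation machinery, with 31 of 84 cytosolic ribosomal protein genes called and a list median of -0.66. Rpl17 was lower by -1.11 and the mitochondrial gene mt-Nd4 by -1.02, and 6 of 9 tested mitochondrial genes were called lower. The percent of mitochondrial UMIs per cell was 0.973 points lower on average in Meiotic 1, and the part of cell quality in these differences was not tested. With cells thinned to that depth, 55 genes were higher and 85 lower, and 52 of the 55 genes called lower were called lower again, and 9 of the 14 called higher. Uchl1, a ubiquitin hydrolase of spermatogonia, was the self-renewal gene called, at -0.76 ± 0.14. The numbers moved with single libraries, to 7, 4, 2 and 27 genes higher without replicates 1, 2, 5 and 6, and to 21 and 102 lower without replicates 2 and 4.

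A comparison that used no clusters set whole day 16 libraries, Meiotic 2 and all other cells included, against those of days 14 and 18. With batch as a covariate, 393 of 16305 genes were higher on day 16 (2.41%) and 354 lower (2.17%), 4.58% in either direction, over 6 against 13 libraries. None of the 40 recombination genes was called, with a median of 0.12 beside -0.01 over all genes. Spo11 in these libraries ran from 9.26 to 12.9 CPM on day 16, from 0.707 to 6.88 CPM on day 14 and from 0 to 8.64 CPM on day 18, without overlap, though the log2 difference of 1.59 ± 0.67 did not pass (edgeR adjusted p = 0.144). None of the 20 G2 and M genes was higher on day 16 and 9 were lower, the opposite of the direction of these genes in Meiotic 1 against Meiotic 2. Meiotic 2 made up 353 of the 571 cells of day 16, and single libraries of days 14 and 18 held 0 to 93 cells of SSC1 to SSC4. Day and cluster make-up cannot be told apart here. Mki67 ran from 34.7 to 81.0 CPM on day 16 and from 83.2 to 178.5 CPM over days 14 and 18, a difference of -1.14 ± 0.19 (adjusted p = 0.00088). Gfra1 and Ret were lower by -1.14 and -0.92, Nanos2 by -1.50 and T by -3.00, so that 4 of 24 self-renewal genes were lower. That count was 1 without replicate 6, 2 without replicate 3, 1 against day 18 alone and 6 against day 14 alone. Egr1, Junb and Fosl1 were higher on day 16 by 1.42, 1.76 and 2.76. Of the 9 genes named above that differed from all 4 SSC clusters, 8 were called in the same direction, Krtap17-1 being the exception. These genes had been chosen with Meiotic 1 cells that are part of the day 16 libraries, so this is no independent test. Without replicate 6 the counts were 236 higher and 214 lower, and without replicate 4 the lower count was 234.

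Markers of other cells were compared too. Fibroblast genes, which the feeder layer would bring, summed to 163 to 299 CPM over 15 genes in Meiotic 1, to 143 to 481 CPM in Meiotic 2 and to medians of 175 to 220 CPM in the SSC clusters, and none was called against any of them. Of 9 somatic testis genes, Amh, Cyp11a1, Insl3 and Hsd3b1 had no UMI in Meiotic 1, and the list summed to 26.4 to 68.4 CPM. Wt1, a factor of Sertoli cells, stood at 8.72 to 50.3 CPM and was higher than in SSC4 by 1.78, and 1 of 5 tested genes of this list was thus called higher, where 3.35% of all genes were. Among 11 neural genes Sox1, Neurod1 and Neurog2 had no UMI and the sum was 58.3 to 117 CPM. Msx1 was higher than in SSC1 by 2.68, with 27 CPM in replicate 5 and 1.38 to 9.39 CPM in the others, and Nes was lower than in Meiotic 2 by -0.90. Neurod1 was called lower than in SSC1, so that 1 of 8 neural genes was higher and 1 lower there, beside 3.6% and 2.39% of all genes. The call of Msx1 was lost without replicate 5 (1.81), that of Wt1 without replicate 3 (1.54), that of Neurod1 without any 1 of the 6 replicates, and all 3 with the library as a block. The identity genes of germ cells, such as Dazl and Ddx4, summed to 4070 to 4827 CPM over 16 genes, beside 4399 to 5215 CPM in Meiotic 2 and medians of 3723 to 5329 CPM in SSC1 to SSC4, with none of 16 called against Meiotic 2, SSC2 or SSC3. Dnd1, an RNA-binding protein of germ cells, was lower than in SSC1 and SSC4 by -0.90 and -0.89, and Dmrt1, a transcription factor of spermatogonia, was higher than in SSC4 by 0.76. These calls were lost with the library as a block, and that of Dmrt1 also without replicate 2 or 3.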

How the data were processed

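Single cells were profiled by modified STRT-seq. According to the study's methods, barcodes and UMIs were extracted with UMI-tools, and reads were aligned to mm10 with STAR 2.7.2b and assigned to genes with featureCounts 2.0.0 (versions from the submitters' processing notes). The annotation release and the strand setting are not given in the sources used here. The values the authors deposited are unnormalised UMI counts, and their annotated set leaves out cells with fewer than 2000 genes or more than 5% mitochondrial UMIs. A table deposited by the authors gives each cell its cluster, library, batch, UMI and gene counts and percent of mitochondrial UMIs. Of 28692 genes listed, those with a UMI in at least 3 cells were kept, and the counts of all 144 members were checked against the deposited filtered table, with 0 values differing. A library with 2 names in the annotation counted as 1.

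Counts were summed per library and cluster with at least 5 cells and tested with the quasi-likelihood functions of edgeR 4.0.16 (R 4.3.3) after filterByExpr and TMM scaling, with Benjamini-Hochberg adjustment. The library was a block in comparisons within libraries, because both clusters of a library share its preparation. Batch was a covariate between days. DESeq2 1.42.0 was an alternative. The fits were also run on counts simulated with known changes, for the fit over all libraries only in the difference from SSC4. The simulated counts held no library, day or batch effect, so they do not test the block or the covariate. Gene positions, counted from 1, come from GENCODE vM21 (GRCm38). Genes named are the study's markers and, per comparison, the 10 called genes of largest fold change in each direction that moved the same way in every library (the 5 called against all 4 SSC clusters for the fit over all libraries), without gene models, pseudogenes and genes under 10 CPM, and members of the lists. Some genes that these rules name are not reported here. Cells, lists and genes were chosen with earlier results of these data known. Exact 95% binomial intervals and Python 3.11.15 with scipy 1.17.1 were used for shares and permutation tests. No doublets were called, since single cells were picked by hand. Lines and scTrio-seq2 cells were not used here.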

Additional observations from a re-analysis of the deposited data

Results flagged for a closer look

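Of 156 groups of 4 to 6 library values of the named genes that were examined, 17 had 1 library far from the others. The nominal rate of the rule, about 1 group in 20, holds for independent normal values. Here the same libraries recur across genes, and the rate that chance gives was not measured. Replicate 6 of Meiotic 1 was the distant library for Ak8 (26.6 CPM), Myl2 (14.9 CPM), Fhad1 (16.3 CPM), Cdc42ep5 (13.2 CPM), Rtp4 (9.63 CPM) and Slc16a10 (4.32 CPM). For the first 5 of these it lay above the other Meiotic 1 libraries and for Slc16a10 below them. These genes had been chosen for their difference from Meiotic 2 in the other 5 libraries, so they are not a sample of all genes.

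Among other Meiotic 1 values, P2rx7 stood apart in replicate 3 (117 CPM, from 6 cells), Ripk3 in replicate 4 (152 CPM) and Hist1h1a in replicate 2 (36 CPM). In Meiotic 2, the distant values were Bcl2l11 (17.4 CPM) and Krtap17-1 (1.73 CPM) in replicate 3, Hist1h1a (7.28 CPM) and Hist1h2ag (11.1 CPM) in replicate 2 and Cdh15 (88.6 CPM) in replicate 4. In the pooled SSC1 to SSC4 cells of day 16, Gstt2 (14 CPM) and Rtp4 (8.97 CPM) stood apart in replicate 4, which had 33 such cells where the others had 7 to 10, and Slc16a10 (16.1 CPM) in replicate 1.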

How the results depend on the processing

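Over single genes, 2582 of 3113 values under an alternative kept their direction and their side of the thresholds, 504 lost the call, 4 gained it and 23 changed sign. The library block is the pairing of the comparisons within libraries. Without that replicate block, Meiotic 1 against Meiotic 2 had 78 genes lower and Dpep3 at 0.16, and Meiotic 1 against SSC1 to SSC4 of the same libraries had 6 higher. With the library as replicate block, the fit over all libraries gave 343 higher and 236 lower against SSC1, 76 and 47 against SSC2, 3 and 4 against SSC3 and 222 and 89 against SSC4. There Dpep3 turned to -1.28, -0.68, -1.56 and -0.85 against SSC1 to SSC4, Spo11 to -0.14, -0.98 and -1.22 against SSC1, SSC3 and SSC4, Egr1 to -0.0559, -0.0688 and -0.0886 against SSC1, SSC2 and SSC4, Gfra1 to 0.27 and 0.41 against SSC1 and SSC2, Pfkl to 0.0339 and Zbtb16 to -0.0143 against SSC3, and Gm4969 (-0.06), Hk2 (0.0034) and Sycp3 (-0.0758) against SSC4. Only libraries that hold several clusters bear on that fit, and no library held a sum of Meiotic 1 together with one of SSC3 or SSC4.

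With DESeq2, counts were 451 higher and 681 lower against Meiotic 2, 81 and 97 against SSC cells of the same libraries, and 225 and 466 lower against SSC2 and SSC3. With sums of at least 10 cells, fewer libraries remained and counts were 130 and 67 against Meiotic 2, 4 and 7 against SSC cells of the same libraries, with Spo11 at -0.0455 and Zbtb16 at 0.0448, and 250 lower against SSC1, with Zbtb16 at 0.0371 against SSC4. With cells thinned to 50000 UMIs, SSC cells of the same libraries gave 55 higher and 85 lower. Without the filter on low counts there were 24 higher in that comparison and 982, 587, 412 and 935 higher against SSC1 to SSC4. Zbtb16 was -0.17 against SSC3 in batch B1 and between -0.0811 and 0.1431 with 1 library omitted. Giving shares of cells with replicate 6 apart was chosen after seeing the data. Day 16 against day 18 gave 228 higher and 151 lower, and no covariate 553 lower.

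With 1 library left out, genes lower than in Meiotic 2 numbered 116 to 290. Against SSC cells of the same libraries, 2 to 27 were higher and 21 to 102 lower. Against SSC2 and SSC3 over all libraries, 82 to 147 and 161 to 230 were lower, the fewest without replicate 3. Day 16 had 236 to 305 higher and 214 to 315 lower, the fewest without replicate 6. The share of Meiotic 1 cells with Spo11 was 31.2% at 100000 UMIs, 11.1% with at least 2 UMIs and 41.0% not thinned, that with Dpep3 41.0% with at least 2 UMIs and 70.8% not thinned, and that with Zbtb16 95.7% at 100000 UMIs and 97.9% not thinned. The cause of these shifts was not tested. Sums of replicate 3 rest on 6 Meiotic 1 cells, and genes at a few CPM there on few molecules.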
